A study of Mus musculus with 4 samples.

Results

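Rab GTPases, sorting nexins and VPS proteins move and sort membrane inside the cell, and their genes were read in bone marrow of mice with MN1 leukemia and in mature myeloid cells of healthy mice. The members were all genes whose single platform symbol was Rab, Snx or Vps followed by a number and, for Rab and Vps, at most 1 letter from a to d. This gave 122 genes of 18193 named by a single symbol on the array, 59 Rab, 30 Snx and 33 Vps genes, measured by 262 probe sets. Where several probe sets measured a gene, the one brightest on average over the 4 arrays stood for it. Of the 122 members, 109 were bright enough to be tested and 13 were not.

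Rab proteins are small GTPases that sit on a given membrane in their GTP-bound form and recruit the motors, tethers and sorting factors of that compartment. Sorting nexins bind phosphoinositides through a PX domain and shape or sort endosomal membrane. VPS genes, named after yeast mutants that missort vacuolar proteins, encode subunits of the retromer, of the HOPS, CORVET, GARP and EARP tethers and of the ESCRT machinery. Granulocytes use this machinery for phagocytosis, for granule release and for the return of receptors and integrins to the cell surface.

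The leukemic group, labelled MN1 leukemic, was bone marrow of C57BL/6J mice that had received marrow carrying a retroviral MN1 gene. The donor marrow had been taken 4 days after 150 mg/kg fluorouracil, stimulated for 48 hours with interleukin-6, interleukin-3 and stem cell factor, transduced by coculture with virus-producing cells and sorted for GFP. Recipients were irradiated with 750 cGy and also given freshly isolated syngeneic marrow, so cells that do not carry MN1 could be present. Whether the leukemic marrow was sorted again before RNA extraction is not stated in the labels. The comparison group, labelled Gr1/Mac1, was Gr1-positive and CD11b-positive bone marrow cells of healthy mice of the same strain. Each group had 2 arrays, described in the design text as biological replicates. Normal immature cells were not included, so the effect of MN1 leukemia and that of maturity cannot be told apart. In bulk RNA fewer cells of a type and less RNA per cell cannot be told apart either.

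The deposited signals, from the MAS5 algorithm, are on a linear scale, and their mean after trimming 2% at each end was 500.003 or 500.004 in every array. Markers of stem and progenitor cells were called higher in the leukemic arrays for 9 of 9 genes. Of 11 mature granulocyte markers 5 were lower, among them Itgam, which encodes CD11b, at 584 and 306 against 4288 and 4407, while 6 did not pass, and their summed signal was 455937.7 and 262495 in leukemic marrow against 458439 and 361742. All 6 measured monocyte and macrophage markers were lower in the leukemic arrays, as were 3 of 5 tested B and plasma cell markers and 1 of 2 tested T and NK cell markers, while 3 of 4 tested erythroid markers were higher. RNA quality, read as the ratio of 3′ over 5′ control probe sets, came to 3.27 and 3.09 for actin in leukemic against 1.32 and 1.39 in mature arrays, and for Gapdh to 3.94 and 3.69 against 1.82 and 2.18. The Y-linked gene Eif2s3y read 4409 in mature replicate 2 and 2.51 to 3.01 in the other arrays, and of the 5 members on the X chromosome Rab33a and Rab9b were too dim to be tested and Rab9, Rab39b and Snx12 did not pass. The part of RNA quality and of the sex of the mice in the results was not tested.

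More members were lower than higher in MN1 leukemic marrow. Of 109 tested members, 36 were called lower, where 15.9% of all 12378 tested genes were, and 14 were called higher, where 27.5% of all were (limma, Benjamini-Hochberg adjusted p threshold 0.05 over all tested genes). Of all tested genes 43.4% were called in either direction, against 50 of the 109 members. The arrays of the groups did not overlap for 89 tested members and for 74.2% of all tested genes, so a lack of overlap alone is common. A log2 fold change is the leukemic minus the mature mean of log2(signal + 16), a scale that understates the change of dim genes. Its median was -0.27 over the tested members and 0.28 over all tested genes. The Rab genes carried most of the calls, with 24 of 50 lower and 5 higher (median -0.68), while the sorting nexins had 6 of 27 lower and 5 higher (median -0.06) and the VPS genes 6 of 32 lower and 4 higher (median -0.21). The median over all tested genes was 0.11 after quantile normalization, -0.03 with every array at the same median and -1.02 after scaling to the hybridization controls. The members' median lay below it by 0.51, 0.55 and 0.59 in those settings, against 0.54 in the signals as deposited. The members called were 9 higher and 36 lower, 8 higher and 40 lower, and 6 higher and 82 lower, so that 20.0%, 16.7% and 6.82% of calls were higher against 28.0%. Over all tested genes the calls in those settings were 2903 higher and 2145 lower, 2250 higher and 2307 lower, and 1029 higher and 6104 lower, against 3403 and 1972. The share of all calls that were higher was 57.5%, 49.4% and 14.4% against 63.3%, so the calls of all genes shifted the same way. Without leukemic replicate 2 the members' median was -0.37, against 0.26 over all tested genes. It was -0.28 against 0.26 without leukemic replicate 1. In both settings fewer members were called, and fewer of all tested genes as well.

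**Figure D1:**
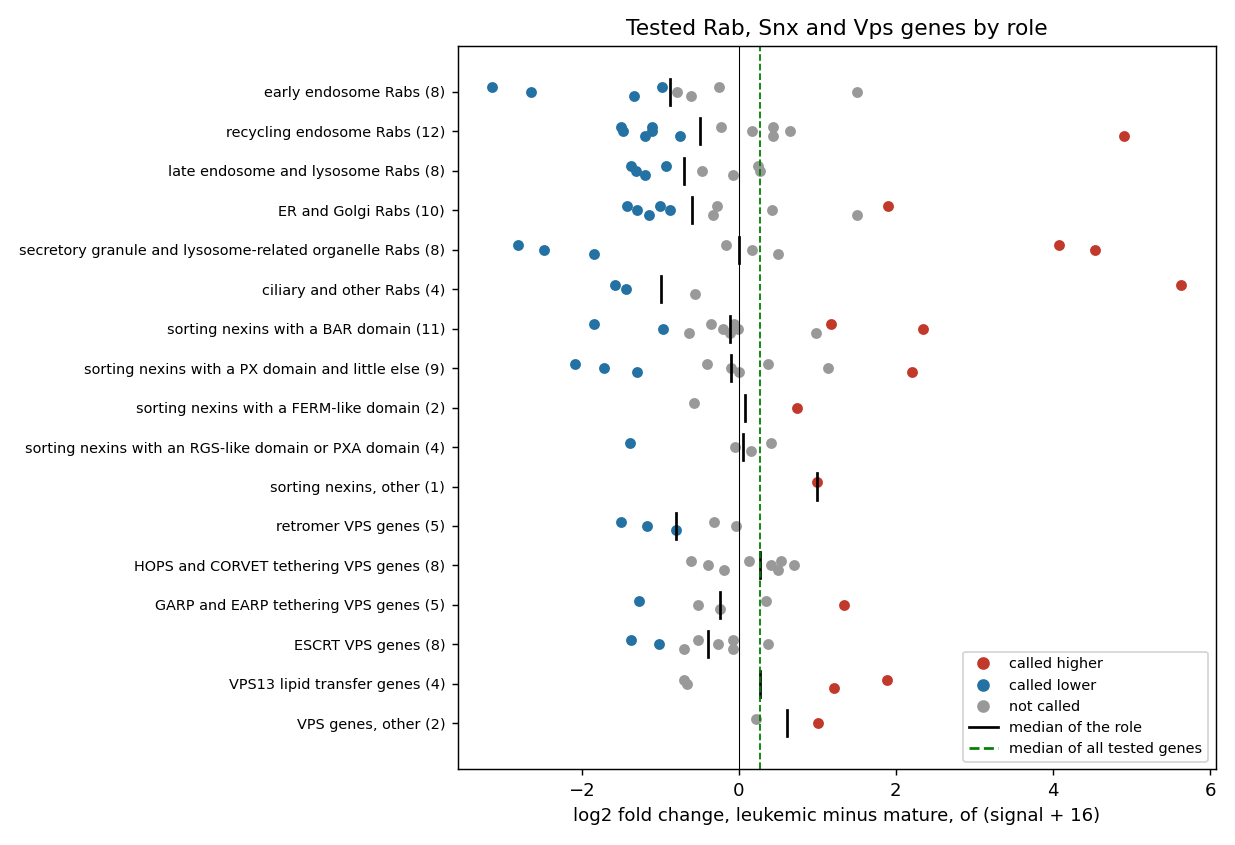
Log2 fold change, leukemic minus mature, of each of the 109 tested members by role, with the number of tested members in brackets. Each point is 1 gene, red called higher, blue called lower and grey not called; black bars are the medians of the roles and the dashed line is the median of all tested genes, 0.28. The Rab roles from early endosome to Golgi have medians from -0.88 to -0.49, and the 4 largest increases are Rab40b, Rab4a, Rab38 and Rab27b.

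Promoter sequences are shown for the members that hold TCACGTGA, an 8-letter sequence that contains the E-box CACGTG and is the core of the element through which TFEB-type factors bind genes of lysosomes. Both strings read the same on both strands. RefSeq promoter windows of assembly GRCm38.p6, from 250 bases before to 50 bases after each start, were at hand for 91 of the 122 members. Of these, 6 (6.59%) held TCACGTGA in a window, against 2.09% of the 10060 tested genes and 1.12% of all 27025 genes in the table, and 13 (14.3%) held CACGTG, against 11.5% and 8.09%. Members too dim to be tested, such as Rab25, are among the 91, while the 10060 are tested genes only. Stretches of 80 bases around the motif follow, with TCACGTGA in capitals, each read 5′ to 3′ on the strand of the gene.
Rab21, chr10:115315579-115315658, minus strand: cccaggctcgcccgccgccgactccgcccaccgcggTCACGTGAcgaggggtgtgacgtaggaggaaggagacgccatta
Rab24, chr13:55321961-55322040, minus strand: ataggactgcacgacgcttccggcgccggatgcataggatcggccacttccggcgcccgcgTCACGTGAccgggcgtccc
Rab5a, chr17:53479102-53479181, plus strand: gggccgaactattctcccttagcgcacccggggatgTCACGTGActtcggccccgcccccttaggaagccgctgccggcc
Vps26a, chr10:62486945-62487024, minus strand: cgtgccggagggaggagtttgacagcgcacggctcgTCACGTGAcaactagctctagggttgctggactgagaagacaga
Vps16, chr2:130424260-130424339, plus strand: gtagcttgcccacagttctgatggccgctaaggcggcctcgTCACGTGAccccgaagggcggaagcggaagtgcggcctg
Vps33a, chr5:123573001-123573080, minus strand: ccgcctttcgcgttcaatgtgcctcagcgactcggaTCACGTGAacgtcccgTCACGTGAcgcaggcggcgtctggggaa
The motif began 31 bases before the annotated start in Rab21, 96 in Rab5a, 183 in Vps26a, 19 in Vps16 and 29 in Vps33a, which holds it 2 times, and at base 2 of the transcript in Rab24. Among the 6, Rab21, Rab24 and Vps26a were called lower, and Rab5a, Vps16 and Vps33a did not pass. By call, 3 of 32 members called lower with a window held it, 0 of 7 called higher and 3 of 44 tested members that did not pass. Among all tested genes it was held by 1.92% of those called lower and 1.87% of those called higher. A match of letters is a description of the sequence and says nothing of binding.

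Of the early endosome Rabs, 4 of 8 were lower in leukemic marrow and the others did not pass. Rab20, which acts in the maturation of phagosomes, read 119 and 14.1 in leukemic marrow, against 663 and 447 in mature cells. The leukemic arrays lay below both mature arrays but far from each other, and the log2 fold change was -3.14 (SE 0.69, adjusted p = 0.01). Rab31, a close relative of Rab22a that works between the Golgi and early endosomes, read 1792 and 828 in leukemic marrow, against 7726 and 7703 in mature cells. Its mean was 5.89-fold lower in leukemic than in mature cells, a log2 fold change of -2.65 (SE 0.36, adjusted p = 0.0019), and the leukemic replicates again differed while the mature ones were nearly equal. Rab21, which carries integrins, read 1812 and 1546 against 3939 and 4581 and was lower, at -1.34 (SE 0.23, adjusted p = 0.004). Its dim second probe set gave -0.23 with overlapping arrays and did not pass (adjusted p = 0.68). Of the Rab5 isoforms, which drive the fusion of early endosomes, Rab5b was lower (-0.98, adjusted p = 0.029). The second Rab5b probe set gave -0.31 and did not pass (adjusted p = 0.57). Rab5a read 3100.1 and 3144 in leukemic marrow, against 3957 and 5770.4 in mature cells, a log2 fold change of -0.61 (SE 0.26, adjusted p = 0.098), and Rab5c was at -0.78, adjusted p = 0.11. Rab22a (-0.26, adjusted p = 0.46) and Rab17 (1.51, adjusted p = 0.074) did not pass either. Without mature replicate 1 the Rab20 call was lost (-2.86, adjusted p = 0.061) and Rab5a passed (-0.88, adjusted p = 0.020). Rab5a also passed with every array at the same median (-0.93, adjusted p = 0.044) and after scaling to the hybridization controls (-1.94, adjusted p = 0.0010).

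Among the Rabs of recycling endosomes and of delivery to the plasma membrane, 6 of 12 tested were lower and 1, Rab4a, was higher. Rab4a and Rab4b are paralogs that return cargo rapidly from early endosomes to the cell surface, and they went opposite ways. Rab4a read 989 and 1057 in leukemic marrow, against 14.6 and 22.9 in mature cells. Both mature arrays were near the bottom of the scale, both leukemic arrays were about equal, and the log2 fold change was 4.91 (SE 0.35, adjusted p = 2.7e-04). Rab4b read 1257 and 1293 in leukemic marrow, against 3593 and 3702 in mature cells, with no overlap in the opposite order, and its log2 fold change was -1.50 (SE 0.22, adjusted p = 0.0022). The Rab4a value came from a probe set with the suffix _s_at, which can match several transcripts. Its other tested probe set, with no such suffix, read 443 and 504 against 22.0 and 5.68, a log2 fold change of 4.09. Rab4b was read from its only probe set, whose suffix _a_at also allows several transcripts.

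Rab11a, which marks the slower route through the recycling endosome, read 4618 and 4533 in leukemic marrow, against 10079 and 9596 in mature cells. Its log2 fold change was -1.10 (SE 0.22, adjusted p = 0.0071), but its second probe set, which lacks the _a_at suffix, gave -0.29 with overlapping arrays. Rab11a did not pass once ambiguous probe sets, those with the suffix _x_at, _s_at or _a_at, were set aside (-0.29, adjusted p = 0.48), with the mean of its probe sets (-0.70, adjusted p = 0.053) or without leukemic replicate 2 (-1.09, adjusted p = 0.053). Its paralog Rab11b did not pass at its brightest probe set (-0.23, adjusted p = 0.56), while 1 of its 2 other tested probe sets, between -0.97 and -0.64, was called lower when each probe set was tested. Rab8a and Rab8b, which bring vesicles to the plasma membrane, were both lower. Rab8b read 5741 and 5556 against 13987 and 17630.1 and changed by -1.47 (SE 0.24, adjusted p = 0.0034), and Rab8a read 2259 and 1631 against 4411 and 3901 and changed by -1.11 (SE 0.25, adjusted p = 0.012). Rab13 (-1.19, adjusted p = 0.033) and Rab35 (-0.75, adjusted p = 0.028) were also lower. The second tested Rab8a probe set gave -0.615 and did not pass (adjusted p = 0.25). Rab10 (0.43), Rab12 (0.43), Rab14 (0.17) and Rab15 (0.65) lay above 0 and did not pass, with an adjusted p from 0.17 to 0.61.

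Of the 8 tested Rabs of late endosomes and lysosomes, 4 were called lower and 4 did not pass. Rab7, the gene of the Rab that directs late endosomes to lysosomes, read 6839 and 5703 in leukemic marrow, against 12457 and 16493 in mature cells. The leukemic arrays were both below the mature arrays, and the log2 fold change was -1.20 (SE 0.26, adjusted p = 0.0097). Its second probe set gave -1.43 and was called as well. Without leukemic replicate 2 the Rab7 call was lost (-1.07, adjusted p = 0.064). Rab24, linked to autophagy, read 1465 and 1679 against 3839 and 4370.3 and was lower, at -1.38 (SE 0.23, adjusted p = 0.0034). Rab7b (-1.31, adjusted p = 0.035), and Rab29, which can recruit the kinase LRRK2 (-0.92, adjusted p = 0.034), were the others. Rab9, whose product returns mannose 6-phosphate receptors from late endosomes to the Golgi, read 2443 and 2333 against 2102 and 1915 and did not pass (0.25, adjusted p = 0.4).

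The Rabs of the endoplasmic reticulum and Golgi had 5 of 10 tested members lower and 1 higher. Rab2a and Rab2b, paralogs that act between these compartments and in the delivery of lysosomal components, again moved apart. Rab2b read 491 and 561 in leukemic marrow, against 93.6 and 175 in mature cells, a log2 fold change of 1.90 (SE 0.37, adjusted p = 0.0065). Rab2a read 5475 and 5234 in leukemic marrow, against 12343 and 11371 in mature cells, a log2 fold change of -1.14 (SE 0.22, adjusted p = 0.0066). All 4 tested Rab2b probe sets lay between 1.40 and 1.90, of which 3 passed, and all 6 of Rab2a lay between -1.14 and -0.15, of which 1 passed. The Rab2b call was lost without leukemic replicate 2 (1.81, adjusted p = 0.054) and after scaling to the hybridization controls (0.66, adjusted p = 0.17). Rab6a, which acts in transport within and back from the Golgi, read 2527 and 2258 against 5074 and 8225 and was lower, at -1.43 (SE 0.29, adjusted p = 0.0073). Its paralog Rab6b read 83.2 and 319 against 30.9 and 71.7, with the leukemic arrays far apart, and did not pass (1.51, adjusted p = 0.11). Rab1a, needed for traffic from the endoplasmic reticulum to the Golgi, read 12370.2 and 11415 against 13638 and 16288 and did not pass (-0.33, adjusted p = 0.32), while Rab1b was lower (-1.01, adjusted p = 0.012), as were Rab33b (-1.30, adjusted p = 0.0054) and Rab43 (-0.87, adjusted p = 0.043). No Rab43 probe set passed when each probe set was tested, with an adjusted p from 0.055 to 0.59. After scaling to the hybridization controls Rab1a was called lower (-1.66, adjusted p = 0.0014).

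Secretory granules and lysosome-related organelles, such as melanosomes and platelet dense granules, have Rabs of their own, of which 8 were tested, 3 lower and 2 higher, with values from -2.81 to 4.53. Rab3d, a Rab of regulated exocytosis, read 1331 and 834 in leukemic marrow, against 7227 and 7729.7 in mature cells. It was 6.91-fold lower in leukemic than in mature cells, a log2 fold change of -2.81 (SE 0.28, adjusted p = 7.1e-04), and all 4 of its tested probe sets were called lower. Rab27a, which docks granules for release and is lost in the granule disorder Griscelli syndrome, read 1922 and 581 in leukemic marrow, against 3730.0 and 3969.5 in mature cells. Both leukemic arrays lay below the mature arrays but apart from each other, and the log2 fold change was -1.85 (SE 0.51, adjusted p = 0.024). Without leukemic replicate 2 the call was lost (-0.995, adjusted p = 0.082), as it was without mature replicate 1 (-1.89, adjusted p = 0.081) or mature replicate 2 (-1.80, adjusted p = 0.10), and without a variance trend its adjusted p was 0.058. Its paralog Rab27b, known from mast cells and platelets, read 411 and 496 in leukemic marrow, against 26.9 and 1.74 in mature cells. Both leukemic arrays stood above both mature arrays at all 4 of its probe sets, which were all called higher and lay between 1.83 and 4.08, and the brightest gave 4.08 (SE 0.54, adjusted p = 0.0017).

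Rab38 and Rab32, which share the assembly of lysosome-related organelles, also went opposite ways. Rab38 read 7511 and 8725 in leukemic marrow, against 275 and 405 in mature cells, or 8118 ± 858 against 340.0 ± 91.4 (SD, n = 2), a 23.9-fold difference and a log2 fold change of 4.53 (SE 0.27, adjusted p = 1.5e-04). That probe set has the suffix _x_at. The other Rab38 probe set, without it, read 4230.4 and 5055 against 140.1 and 15.1, a log2 fold change of 6.06. Rab32 read 1908 and 866 in leukemic marrow, against 7749.8 and 6807 in mature cells, with a log2 fold change of -2.48 (SE 0.37, adjusted p = 0.0026). Rab37 (0.50, adjusted p = 0.23), Rab44 (0.17, adjusted p = 0.56) and Rab3a (-0.16, adjusted p = 0.66) did not pass. Most mast cell and basophil markers were higher in leukemic marrow, as were Rab27b and Rab38. Of 6 tested markers 5 were called higher, the summed signal of the 7 measured was 53294 and 67565 in leukemic marrow against 10720.1 and 13561, and Tpsb2 was dim on all arrays, from 3.77 to 50.3. Hdc read lower, at 7991 and 8320 against 10202 and 13249, and did not pass (-0.51, adjusted p = 0.14). Higher calls were shared by 9 of 9 stem and progenitor markers and 3 of 4 tested erythroid markers. Of 6 megakaryocyte and platelet markers 2 were higher and 1 lower, with sums of 3883 and 3215 against 3321 and 2081. The part of such cells in these values was not tested.

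**Figure D2:**
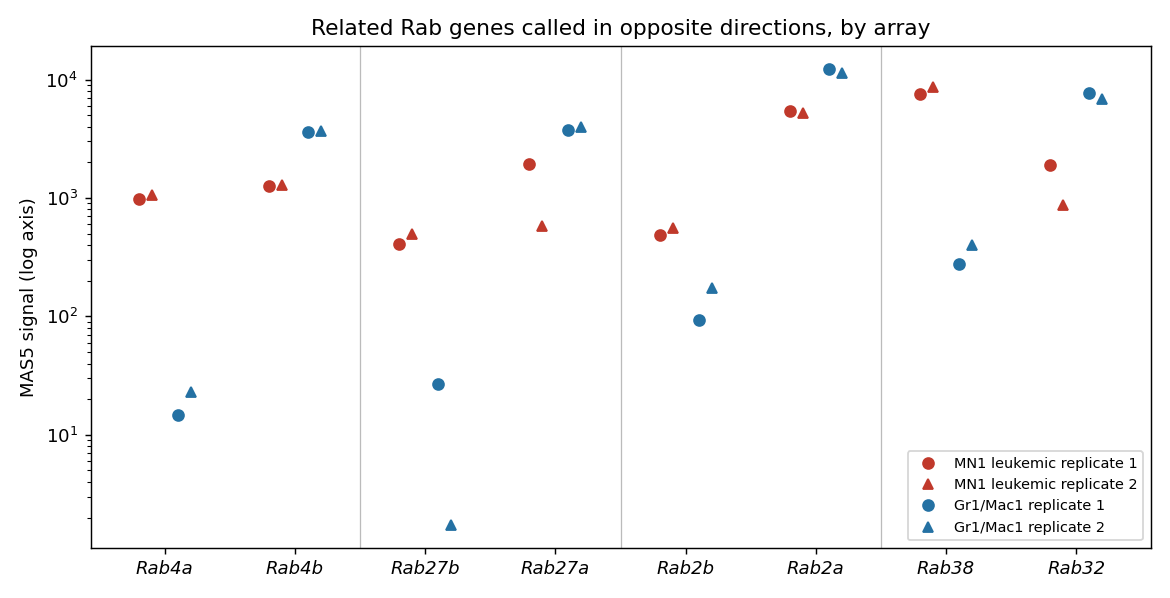
MAS5 signal on a log axis of 8 Rab genes in each of the 4 arrays, with leukemic arrays in red and mature arrays in blue, circles for replicate 1 and triangles for replicate 2. In each pair the first gene is higher in both leukemic arrays and the second is higher in both mature arrays; signals of different genes come from different probe sets and cannot be set against each other.

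Opposite calls within a numbered group were seen for Rab2, Rab4 and Rab27, which are 3 of the 27 pairs of tested members that share a number and differ in their letter. In 6 pairs both members were called the same way. These were Rab7 and Rab7b, Rab8a and Rab8b, Vps13a and Vps13c, and the 3 pairs within Vps26. The difference between the members of a pair was not tested, and the comparison of Rab32 with Rab38 was added after their values were seen.

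Rab40b is one of the Rabs that carry a SOCS box and act as adaptors of ubiquitin ligases. It read 790.3 and 1200.1 in leukemic marrow, against 5.22 and 2.81 in mature cells, so that the mature arrays were at the bottom of the scale, and its log2 fold change was 5.63 (SE 0.41, adjusted p = 2.8e-04). The size depends on the pseudocount, and with a pseudocount of 64 it was 3.93, below the 4.35 of Rab38. Its second probe set was too dim to be tested, at 32.9 and 30.3 against 6.07 and 7.82. The related Rab40c did not pass (-0.55, adjusted p = 0.17). Rab23, an inhibitor of hedgehog signalling, read 164 and 256 against 564 and 732 and was lower, at -1.58 (SE 0.33, adjusted p = 0.0089). Rab28, a Rab of cilia, read 1640.5 and 1604 against 4515 and 4291 and was lower, at -1.43 (SE 0.22, adjusted p = 0.0025). The second Rab28 probe set gave -0.43 and did not pass (adjusted p = 0.28). Without leukemic replicate 1 the Rab23 call was lost (-1.28, adjusted p = 0.069).

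Of 27 tested sorting nexins 5 were higher, 6 were lower and 16 did not pass, and with quantile normalization 3 were higher and 7 lower, with every array at the same median 2 and 6, and after scaling to the hybridization controls 2 and 19. Snx5, one of those with a BAR domain, which bends membrane into tubules, read 6129 and 6634 in leukemic marrow, against 1649 and 930.1 in mature cells. Its log2 fold change was 2.35 (SE 0.31, adjusted p = 0.0017), and all 5 of its probe sets were called higher, between 1.03 and 2.46. Snx5 and Snx6 pair with Snx1 or Snx2 in the coat that exports cargo from endosomes. Snx1 (2726 and 3198 against 3122 and 2835, -0.01, adjusted p = 0.97) and Snx2 (2176 and 2875 against 2618 and 2804, -0.11, adjusted p = 0.73) had overlapping arrays, and Snx6 read 2069.6 and 1721 against 2126 and 4092 and did not pass at its brightest probe set (-0.64, adjusted p = 0.17). The 3 other Snx6 probe sets were called lower when each probe set was tested, between -1.55 and -0.90. Snx18, whose SH3 and BAR domains act in endocytosis and autophagy, read 2008 and 917 against 5008 and 4849.7 and was lower, at -1.85 (SE 0.37, adjusted p = 0.0072). Its relatives Snx9 (-0.35, adjusted p = 0.33) and Snx33 (0.99, adjusted p = 0.08) did not pass. Snx4, which returns transferrin receptor from endosomes, read 3029 and 2760.1 against 5761 and 5543 and was lower, at -0.96 (SE 0.22, adjusted p = 0.011), although its dim second probe set lay at 0.42. Snx30, a relative of Snx4 and Snx7, read 391.9 and 544 against 264 and 144 and was higher, at 1.18 (SE 0.38, adjusted p = 0.043). When each probe set was tested, neither this one (adjusted p = 0.0504) nor its second (0.37, adjusted p = 0.44) passed. The Snx30 call was lost with quantile normalization, with the mean of its probe sets, without a filter on low signals and without a variance trend.

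Among the sorting nexins with little beside the PX domain, 3 of 9 tested were lower and Snx16 was higher. Snx20, which binds the selectin ligand PSGL-1, read 391 and 241 in leukemic marrow, against 1726 and 1076 in mature cells. Its log2 fold change was -2.09 (SE 0.35, adjusted p = 0.0038), with no overlap between the groups. Snx10, needed by osteoclasts for bone resorption, read 1086 and 824 against 3159.9 and 3132 and changed by -1.72 (SE 0.24, adjusted p = 0.0021), and Snx11 read 362 and 257 against 779 and 773 and changed by -1.30 (SE 0.29, adjusted p = 0.01). Snx16, a nexin of early and recycling endosomes, read 354 and 494 in leukemic marrow, against 82.2 and 74.3 in mature cells, and its log2 fold change of 2.21 (SE 0.35, adjusted p = 0.0032) came from a probe set with the suffix _s_at. Of its 2 other tested probe sets 1 gave 2.25 and 1 gave 0.79, and the second of these did not pass. Snx3, which works with the retromer on Wntless, did not pass (-0.41, adjusted p = 0.19).

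Snx17, which recycles integrins and receptors of the LDL receptor family, read 16003 and 16404 against 9077 and 10397 and was higher, at 0.74 (SE 0.24, adjusted p = 0.041). Snx27, the nexin with a PDZ domain, did not pass (-0.58, adjusted p = 0.099). Snx13, one of the nexins with an RGS-like domain, read 1434 and 1139 against 3101 and 3648 and was lower, at -1.38 (SE 0.24, adjusted p = 0.0042), while Snx14, Snx19 and Snx25 lay between -0.05 and 0.41 and did not pass. Snx15 read 788 and 1145 against 449.7 and 486 and was higher, at 1.00 (SE 0.28, adjusted p = 0.027). The increases of Snx15, Snx17 and Snx30 turned to -0.30, -0.59 and -0.08 after scaling to the hybridization controls and did not pass with every array at the same median, where they were 0.69, 0.42 and 0.87. Their calls were also lost without leukemic replicate 1 (1.26, 0.75 and 1.40) or leukemic replicate 2 (0.73, 0.72 and 0.95). Without mature replicate 1 those of Snx15 (0.94) and Snx17 (0.64) were lost, and without mature replicate 2 that of Snx30 (0.77). Snx4 did not pass without leukemic replicate 1 (-1.03) or 2 (-0.90) or with the mean of its probe sets (-0.27), nor Snx11 without leukemic replicate 2 (-1.07).

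The retromer, which returns receptors from endosomes to the Golgi or the cell surface, is a trimer of VPS35, VPS29 and a VPS26 protein, and VPS26C takes that place in the related retriever. All 3 Vps26 genes were called lower. Vps26b read 1188 and 948 in leukemic marrow, against 3456 and 2645 in mature cells, a log2 fold change of -1.50 (SE 0.26, adjusted p = 0.0039). Its other tested probe sets gave -0.73 (adjusted p = 0.062) and -0.34 (adjusted p = 0.51) when each probe set was tested and did not pass. Vps26c read 1564 and 1335 against 3837 and 2806 and changed by -1.17 (SE 0.25, adjusted p = 0.0098). Vps26a read 1274 and 1511 against 2412 and 2438 and changed by -0.80 (SE 0.23, adjusted p = 0.027). The scaffold subunit Vps35 read 7192 and 6967 in leukemic marrow, against 7197 and 7364 in mature cells and did not pass, with a log2 fold change of -0.04 (SE 0.22, adjusted p = 0.9). Its sign turned with quantile normalization (0.20) and with the mean of its probe sets (0.0012), and after scaling to the hybridization controls it was called lower (-1.37, adjusted p = 0.0020). Vps29 did not pass (-0.32, adjusted p = 0.29). Without leukemic replicate 2 the calls of Vps26a (-0.92, adjusted p = 0.11) and Vps26c (-1.06, adjusted p = 0.084) were lost, and without leukemic replicate 1 that of Vps26a (-0.68, adjusted p = 0.21).

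HOPS and CORVET, which tether endosomes before fusion and share Vps11, Vps16, Vps18 and Vps33a, were grouped with Vps33b, whose product works with VIPAS39 outside these tethers, and had 0 of 8 genes called by limma. At an unadjusted p under 0.05 there was 1, Vps33a, which read 694 and 755 against 405 and 472 (0.71, adjusted p = 0.064). The log2 fold changes ran from -0.61 for Vps18 to 0.71 for Vps33a. Vps18 read 214 and 162 in leukemic marrow, against 286 and 301 in mature cells, with both leukemic arrays below the mature arrays, and did not pass (-0.61, adjusted p = 0.17), but was called lower after scaling to the hybridization controls (-1.85, adjusted p = 0.0030). Vps39 and Vps41, the subunits particular to HOPS, lay at 0.42 and -0.18, and Vps8, particular to CORVET, at 0.50. The other tested Vps41 probe sets had the opposite sign, at 0.44 and 0.47, and did not pass either. Of GARP and EARP, tethers of Golgi and recycling endosomes that share Vps51, Vps52 and Vps53, the subunit Vps54 of GARP was lower and the subunit Vps50 of EARP was higher. Vps54 read 1729 and 1533 against 3533 and 4405, a log2 fold change of -1.27 (SE 0.24, adjusted p = 0.0053). Vps50 read 402 and 446 against 157 and 159, a log2 fold change of 1.34 (SE 0.30, adjusted p = 0.012). The shared subunits lay between -0.52 and 0.35 at their brightest probe sets and did not pass. The 0.35 was that of Vps53, which had 3 tested probe sets. The others had the opposite sign, at -0.67 (adjusted p = 0.073) and -0.94 (adjusted p = 0.060) when each probe set was tested. The Vps50 call was lost without leukemic replicate 1 (1.41, adjusted p = 0.075) or 2 (1.27, adjusted p = 0.12), with every array at the same median (1.04, adjusted p = 0.055) and after scaling to the hybridization controls (0.09, adjusted p = 0.82). That of Vps54 was lost without leukemic replicate 2 (-1.18, adjusted p = 0.052) and with the mean of its 5 probe sets (-0.91, adjusted p = 0.087).

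**Figure D3:**
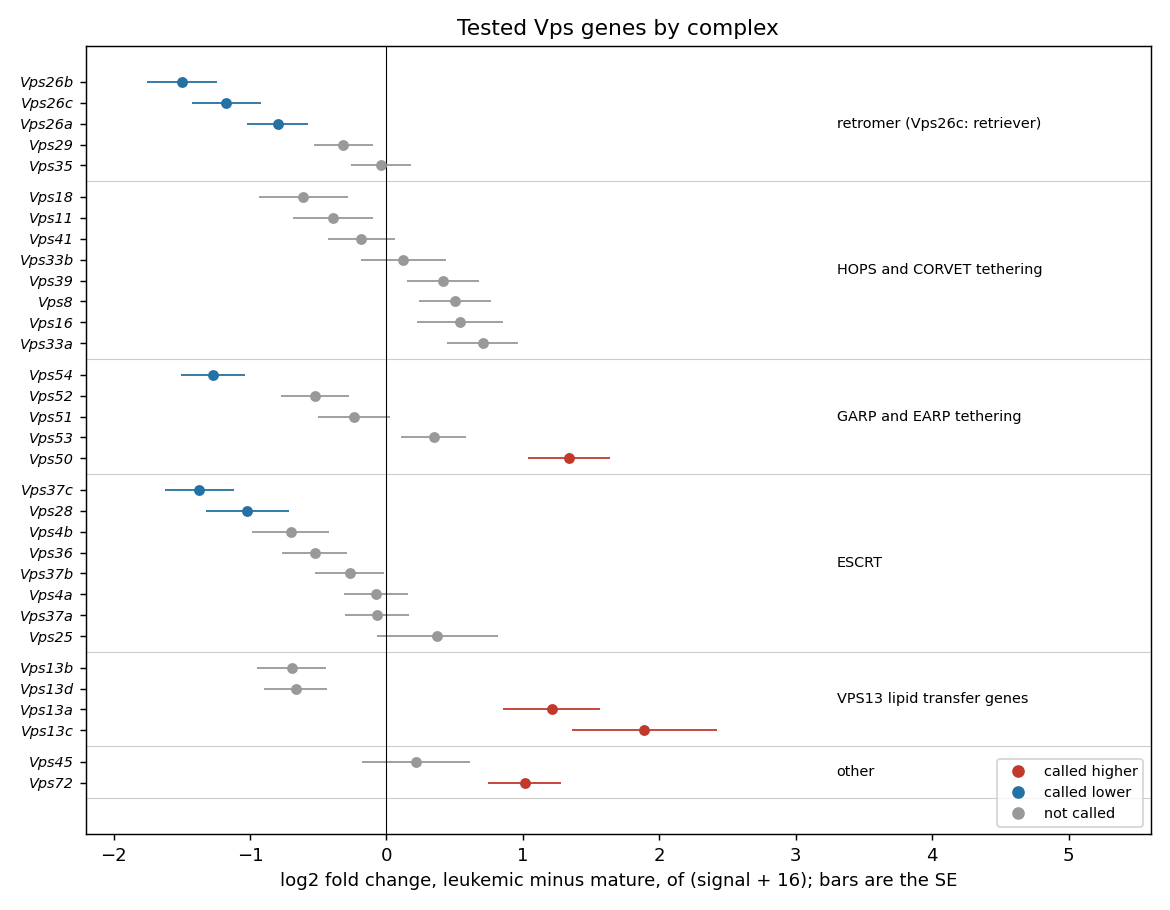
Log2 fold change, leukemic minus mature, of the 32 tested Vps genes, grouped by complex, with bars for the SE of the limma fit. Red is called higher, blue called lower and grey not called; Vps26c belongs to the retriever. The 3 Vps26 genes lie between -1.50 and -0.80 and the 8 genes of the HOPS and CORVET group, which includes Vps33b of another complex, between -0.61 and 0.71.

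The ESCRT complexes, which sort ubiquitinated cargo into multivesicular bodies, had 2 of 8 tested VPS members lower. Vps37c of ESCRT-I read 2790.1 and 2109 in leukemic marrow, against 6982 and 5684 in mature cells, a log2 fold change of -1.37 (SE 0.25, adjusted p = 0.0052), and both of its tested probe sets, each with the suffix _s_at, were called. Vps28, also of ESCRT-I, read 4651 and 4649 in leukemic marrow, against 12359 and 7203 in mature cells, where the leukemic arrays were equal and the mature arrays differed, and its log2 fold change was -1.02 (SE 0.30, adjusted p = 0.032). Vps28 did not pass without leukemic replicate 1 (-1.02) or 2 (-1.02), without mature replicate 1 (-0.63) or with quantile normalization (-0.79, adjusted p = 0.062). The ATPase genes Vps4a (1115 and 1342 against 1303 and 1276, -0.08, adjusted p = 0.82) and Vps4b (10437 and 8603 against 12776 and 18603, -0.70, adjusted p = 0.084) did not pass. Vps4a turned to 0.06 without leukemic replicate 1 and was called lower after scaling to the hybridization controls (-1.39, adjusted p = 0.0026).

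The VPS13 genes encode bridges that carry lipids between organelles. Vps13c read 193 and 268 in leukemic marrow, against 86.2 and 26.2 in mature cells and was higher, at 1.89 (SE 0.53, adjusted p = 0.027), and Vps13a read 387 and 566 against 157 and 237 and was higher, at 1.21 (SE 0.35, adjusted p = 0.03). Of the 5 tested Vps13a probe sets 1 was called higher, and the others lay between 0.42 and 1.19. Vps13b (-0.69, adjusted p = 0.064) and Vps13d (-0.67, adjusted p = 0.054) lay below 0 and did not pass. Vps72 read 843 and 1117 against 456 and 490.4 and was higher, at 1.01 (SE 0.27, adjusted p = 0.021). Its product is a histone chaperone of chromatin remodelling complexes and not a part of the sorting machinery. After scaling to the hybridization controls Vps13a and Vps72 turned to -0.05 and -0.29 and Vps13c fell to 0.77 (adjusted p = 0.27), and with quantile normalization all 3 calls were lost (0.89, 0.79 and 1.55). With every array at the same median the calls of Vps13a and Vps72 were lost, and without a filter on low signals those of Vps13a and Vps13c. The Vps13a call was also lost with the mean of its probe sets. Without leukemic replicate 1 (1.48, 1.21 and 2.11) or leukemic replicate 2 (0.95, 0.81 and 1.67) Vps13a, Vps72 and Vps13c did not pass. Without mature replicate 1 the call of Vps13a was lost (0.94), and without mature replicate 2 that of Vps13c (1.25).

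Of 113 tested genes for Rab exchange factors, GTPase-activating proteins, effectors, Rab prenylation, other ESCRT subunits, the WASH complex and class III phosphoinositide 3-kinase, 32 (28.3%) were lower and 12 (10.6%) higher, against 15.9% and 27.5% of all tested genes, with a median of -0.20 against 0.28. In the share called lower, the other ESCRT genes (19.1%) and those of the WASH complex and the kinase (15.4%) lay near all genes. Their shares called higher, 4.76% and 7.69%, were below the 27.5% of all genes. Their medians were -0.36 and -0.14. Of 6 prenylation and recycling genes, Rabggtb, the catalytic subunit of the enzyme that attaches lipid to Rabs, was higher (4409.8 and 4056 against 936 and 988, a log2 fold change of 2.12 (SE 0.22, adjusted p = 7.9e-04)). Chm, the escort protein that presents Rabs to it, was lower (-1.14, adjusted p = 0.016). Of 23 exchange factor genes 8 were lower and 3 higher. Rin3 read 1067 and 504 against 5338 and 4777 (-2.76, adjusted p = 0.0016) and Rin2 181 and 82.3 against 604 and 982 (-2.50, adjusted p = 0.0042), both exchange factors of the Rab5 group, while Dennd6a (1.94, adjusted p = 0.0079) and the Rab8 exchange factor gene Rab3ip (1.84, adjusted p = 0.0045) were higher.

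Of 27 genes for GTPase-activating proteins 9 were lower, among them Tbc1d1 (-2.92, adjusted p = 0.0024) and Tbc1d9 (-2.90, adjusted p = 0.011), and 3 higher, among them Rabgap1l (1.34, adjusted p = 0.0045) and Tbc1d7 (1.18, adjusted p = 0.02), whose product also belongs to the TSC complex. Of 23 effector genes 8 were lower and 3 higher. The effectors included Rab11fip4 (-2.39, adjusted p = 0.0019), Plekhm1, which joins Rab7 to HOPS (-1.87, adjusted p = 0.0022), the Rab27 effector Sytl2 (1.76, adjusted p = 0.035) and the endosomal ATPase gene Ehd3, which read 547 and 655 against 39.9 and 52.5 (3.31, adjusted p = 8.3e-04). Of 21 other ESCRT genes 4 were lower, such as Chmp2a (-1.27, adjusted p = 0.0095) and Chmp5 (-1.11, adjusted p = 0.011), and 1, Stam, was higher (0.96, adjusted p = 0.016). Of 13 genes of the WASH complex and class III phosphoinositide 3-kinase 2 were lower, Washc2 (-1.13, adjusted p = 0.011) and Uvrag (-0.95, adjusted p = 0.013), and 1, the kinase's regulatory subunit Pik3r4, was higher (0.95, adjusted p = 0.019).

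The leukemic replicates differed in the same sense across many called members. Of the 36 members called lower, 29 read higher in leukemic replicate 1 than in replicate 2, with a median log2 difference of 0.23, and of the 14 called higher, 0 did, with a median of -0.33. Over all tested genes, 1567 of 1972 called lower and 1067 of 3403 called higher read higher in replicate 1. The gaps were widest for Rab20, Rab27a, Rab32, Snx18 and Rab31 among those called lower. All 11 mature granulocyte markers also read higher in leukemic replicate 1, with a median log2 difference of 0.95, and their part in these values was not tested. In mature replicate 1, 20 of the 36 and 6 of the 14 read higher than in mature replicate 2, as did 9 of the 11 granulocyte markers (median 0.33).

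**Figure D4:**
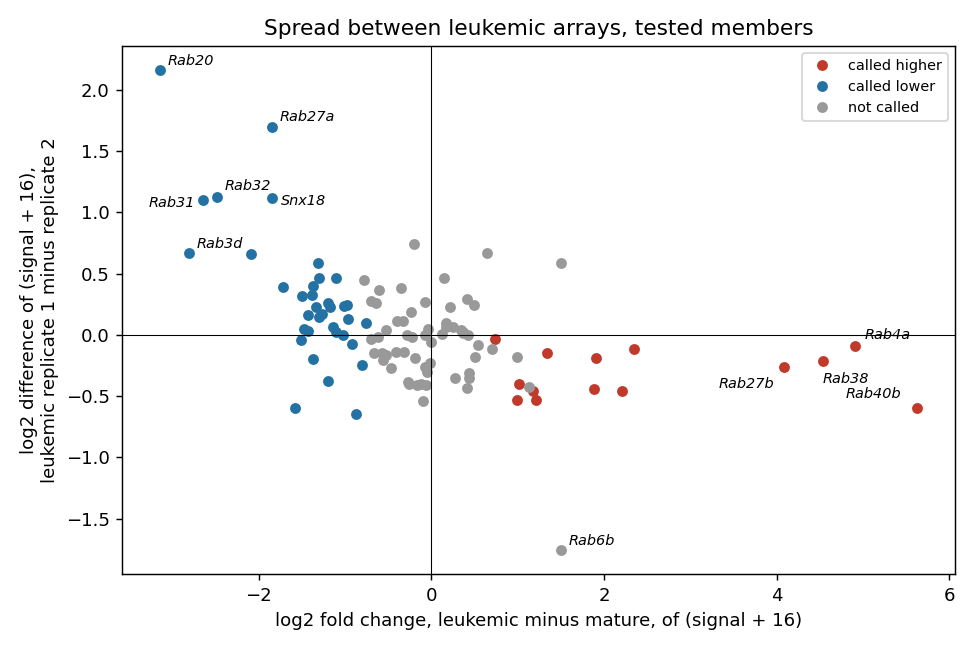
For each tested member, the log2 difference of (signal + 16) between leukemic replicates 1 and 2 against the log2 fold change between leukemic and mature arrays; both axes use the same leukemic arrays. Of the 36 members called lower (blue) 29 lie above 0 on the vertical axis, all 14 called higher (red) lie below it, and Rab6b, not called, has the lowest value.

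Of the 50 called members, 30 had several tested probe sets. In 17 of these a second probe set was called in the same direction, in 1, Snx4, a tested probe set had the other sign, and no member had probe sets called in opposite directions. Of the called members 13 were read from a probe set whose suffix allows several transcripts. The 13 untested members were dim in nearly every array. Rab25, Rab26, Rab3b, Rab9b, Rab33a, Rab39, Rab42, Snx24, Snx31 and Snx32 stayed at or below 66.2 in all 4 arrays. Rab30 read 120.3 in leukemic replicate 2 and 4.88 to 5.88 elsewhere, Rab3c 60.8 in leukemic replicate 1 and 6.89 to 29.7 elsewhere, and Vps37d 9.45 to 70.8.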

How the data were processed

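RNA of 2 MN1 leukemic and 2 Gr1/Mac1 samples was hybridized to Affymetrix arrays of 45101 probe sets. The deposited values are linear signal intensities that the authors computed with MAS5 in GCOS 1.3.0, per the submitters' processing notes. Detection calls were not used here. Of 45037 probe sets other than controls, 34945 carry 1 gene symbol in the platform annotation, 932 several and 9160 none. Signals were taken to log2(signal + 16), the dimmest 40% of probe sets by mean signal were left out, leaving 27022 with a mean of at least 47.65, and each gene was read from its brightest probe set, which gave 12378 genes. These were fitted with limma 3.58.1 (R 4.3.3) with a variance trend, 2 residual degrees of freedom (6.9 after moderation) and Benjamini-Hochberg adjustment, threshold 0.05. The median SE was 0.329, and precision is limited by having 2 arrays a group. The p-values compare each change with the spread between these arrays, which the fit moderated with that of the other genes. Without the variance trend 11 members were called higher and 30 lower. Over all tested genes the calls were then 3077 higher and 1700 lower, against 3403 and 1972 with it. The fit was tested on simulated arrays with independent noise and few changed genes. These arrays differ from that, with 43.4% of tested genes called, so the simulation cannot show whether the calls made here are right. Same-numbered replicates did not deviate together (correlation -0.03). The members and the lists of roles, partners and cell markers were chosen with earlier results of these data known. The genes named were the up to 6 called members of each family and direction with the largest change, with the main members of each role, and up to 2 partners of each list and direction; other members were named after their values were seen. Gene names and promoters came from RefSeq (GRCm38.p6). Plots were made in Python 3.11.15 (pandas 2.3.3, matplotlib 3.10.9). Alternatives covered the pseudocount, filter, scaling, probe set choice, variance trend, a 2-fold minimum, a replicate block and leaving out each array.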

Additional observations from a re-analysis of the deposited data

How the results depend on the processing

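Members called numbered 14 higher and 36 lower. Higher calls fell to 9 with quantile normalization, 8 with every array at the same median and 6 with arrays scaled to the hybridization controls, where 82 members were lower. Over all tested genes higher calls fell from 3403 to 2903, 2250 and 1029 in these settings, and 6104 genes were lower in the last. That last scaling uses 1 factor per group and turned Snx15 (-0.30), Snx17 (-0.59), Snx30 (-0.085), Vps13a (-0.050) and Vps72 (-0.29) below 0. Vps35 turned to 0.20 with quantile normalization and 0.0012 with the mean of its probe sets, and Vps4a, at -0.08, ran from -0.21 to 0.057 when single arrays were left out. When every probe set was tested, a count added after seeing the data, 24 of 224 tested member probe sets were higher and 54 lower. These are counts of probe sets and not of genes, and the share over all probe sets was not counted. Without each array in turn the counts ran from 6 to 15 higher and from 18 to 34 lower; the lone array left in a group is then assumed to vary like the others. With the replicate number as a block, 15 members were higher and 36 lower, the one change among all tested members being Rab6b (1.51, adjusted p = 0.038), which then passed; the samples share only a number. The cause of these shifts was not tested, apart from the scaling's own construction. Whether a call was kept was followed only for the genes named by size of change or by role, and not for the other called members. Among those named genes, Rab27b, Rab31, Rab32, Rab38, Rab3d, Rab40b, Rab4a, Snx10, Snx13, Snx16, Snx18, Snx20, Snx5, Vps26b and Vps37c kept their calls in all settings run, wherever they were tested. Signals near background, as in the mature arrays for Rab40b, Rab4a and Rab27b, limit how well the size of a fold change is known.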
